A study of Mus musculus with 211 samples.

Results

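Pla2g7, Alox5, Alox5ap, Lta4h, Ltc4s, Pla2g4a, Ptgs1, Ptgs2, Ltb4r1 and Ptafr encode enzymes and receptors of the lipid mediators made from membrane phospholipids. They were chosen for that role, looked up by Ensembl identifier, and all 10 were found among the 48709 genes of the count table. The table holds read counts for 211 single cells, sorted by FACS for GFP from cochleae of adult CD1 mice and captured on the Fluidigm C1, a chip that isolates 1 cell per chamber. All mice carried the Lfng-EGFP transgene, a BAC in which regulatory sequence of Lfng drives GFP, so the sort selected on the transgene and not on a cell surface marker. Cells came from 8 captures at P60 (60 days of age) and from 4 captures at P120 (120 days). Each capture pooled 4 mice, with both sexes used, and was taken as the replicate. No group without the transgene and no treatment was included.

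Pla2g4a encodes the cytosolic phospholipase A2 that frees arachidonic acid from membranes. The 5-lipoxygenase Alox5, with its activating protein Alox5ap, turns arachidonic acid into leukotriene A4, which Lta4h converts to the neutrophil attractant leukotriene B4, bound by the receptor Ltb4r1, and which Ltc4s couples to glutathione to give leukotriene C4. The cyclooxygenases Ptgs1 (COX-1) and Ptgs2 (COX-2, the inducible form) start prostaglandin synthesis, while Ptafr is the receptor for platelet-activating factor (PAF) and Pla2g7 the secreted acetylhydrolase that degrades it. In the adult body many of these genes are known from granulocytes and other leukocytes.

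A cell held between 41 and 5361476 reads on genes. At least 50000 were held by 164 cells, 80 at P60 and 84 at P120, while 22 cells at P60 and 25 at P120 fell below. Shares of cells with a read were computed after each of these cells had been thinned at random to 50000 reads, so that depth does not set them. Capture 10c stood apart, with a median of 451 reads over its 13 cells and 1 cell above 50000. The labelled cell type, the cochlear supporting cell, was hardly seen in the RNA. All 13 supporting cell genes looked for (among them Sox2, Gjb2 and Lfng) were in the table, but they took 0.0336% of the reads of the 164 cells, from 0.00223% to 1.24% per capture, and 3 of 164 cells held at least 3 of them with 10 or more reads each. By the same count, 160 of 164 cells held the leukocyte genes and 153 of 164 the late neutrophil genes, against 2 cells for monocytes and macrophages and 0 for hair cells, endothelial cells and platelets. The leukocyte and late neutrophil lists took 1.43% and 10.4% of the reads. The values below therefore describe mostly cells with granulocyte genes.

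The sequences around the RefSeq start of 4 genes are shown, for the PAF enzyme and receptor and both cyclooxygenases, whose levels are compared below. They come from RefSeq (GRCm38.p6), run 5′ to 3′ on the plus strand, on which all 4 genes lie, and cover 250 bases before and 50 after the annotated start. Pla2g7 is shown from chr17:43568201-43568500, Ptafr from chr4:132563817-132564116, Ptgs2 from chr1:150099781-150100080 and Ptgs1 from chr2:36230176-36230475. The Pla2g7 window lies inside the gene position given below, chr17:43568098-43612201, and so is not upstream of that gene start. Capitals mark matches to short motifs of factors known from myeloid cells.
Pla2g7: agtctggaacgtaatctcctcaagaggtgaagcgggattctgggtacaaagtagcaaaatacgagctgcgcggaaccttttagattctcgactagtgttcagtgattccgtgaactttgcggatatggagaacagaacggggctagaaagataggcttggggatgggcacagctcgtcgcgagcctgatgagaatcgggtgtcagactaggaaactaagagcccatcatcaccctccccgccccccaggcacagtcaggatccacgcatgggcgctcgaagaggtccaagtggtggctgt
Ptafr: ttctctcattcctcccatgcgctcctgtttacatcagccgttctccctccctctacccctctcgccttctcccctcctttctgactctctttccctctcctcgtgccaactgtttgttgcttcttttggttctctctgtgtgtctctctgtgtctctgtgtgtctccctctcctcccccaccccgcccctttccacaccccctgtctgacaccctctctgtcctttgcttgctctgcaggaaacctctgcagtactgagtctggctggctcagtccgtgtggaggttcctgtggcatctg
Ptgs2: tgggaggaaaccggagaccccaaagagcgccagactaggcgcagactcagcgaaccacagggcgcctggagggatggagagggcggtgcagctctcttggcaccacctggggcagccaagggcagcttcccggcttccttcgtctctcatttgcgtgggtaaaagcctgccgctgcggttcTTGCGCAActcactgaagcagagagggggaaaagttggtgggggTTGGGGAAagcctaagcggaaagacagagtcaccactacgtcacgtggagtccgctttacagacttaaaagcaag
Ptgs1: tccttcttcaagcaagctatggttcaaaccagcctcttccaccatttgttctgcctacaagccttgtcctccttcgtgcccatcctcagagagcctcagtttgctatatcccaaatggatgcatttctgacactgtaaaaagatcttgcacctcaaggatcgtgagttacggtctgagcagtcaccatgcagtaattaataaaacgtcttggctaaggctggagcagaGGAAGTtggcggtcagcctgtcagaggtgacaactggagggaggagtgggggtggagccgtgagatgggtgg
The letters searched on both strands were TTNCNNAA for C/EBP, GGAAGT for PU.1 and TGANTCA for AP-1, and TATAAA was searched on the gene strand for the TATA box. Ptgs2 held 2 C/EBP matches, the first at position -69 from its start, and Ptgs1 held 1 PU.1 match at position -22. The windows of Pla2g7 and Ptafr held none of the 4 motifs, which says only that these letters are not in these windows. Of 32851 RefSeq windows of the same length, 40.7% held the C/EBP letters, 23.8% those of PU.1, 7.81% those of AP-1 and 8.32% the TATA letters. A window was found for 9 of the 10 genes, the exception being Alox5ap.

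The genes differed widely in how many cells held them. Alox5ap was the most widespread, with a read in 77.4% of the 164 thinned cells, followed by Lta4h in 45.1%. Alox5 (38.4%), Ptafr (37.2%), Pla2g7 (36.6%, exact 95% interval 29.2% to 44.5%) and Ptgs2 (35.4%) had like shares. Ltb4r1 (20.1%), Ptgs1 (17.7%) and Pla2g4a (11%) were found in fewer cells, and Ltc4s in 0, which allows up to 1.83% by a limit of 3 cells and up to 2.22% by the exact 95% interval. The intervals and limits cover counting error only, since reads were not collapsed to molecules. A median of 3 of the 10 genes was read per thinned cell, with a range from 0 to 7.

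Reads of most of these genes came from a few cells. For Pla2g7 (ENSMUSG00000023913.17, chr17:43568098-43612201), the 10 cells with the most reads held 77.4% of all its reads, and 1 cell held 23.7%. The same 10-cell share was 94.2% for Pla2g4a, 82.4% for Ptgs1, 82% for Ltb4r1, 76.5% for Ptgs2 and 67.1% for Ptafr, but 34.7% for Alox5ap. A sum over a capture thus follows a handful of cells, and in such sums fewer cells of a type and less RNA per cell cannot be told apart. Ltc4s (ENSMUSG00000020377.14, chr11:50236461-50238616) had 17 reads, all in 1 cell of capture 31.

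Per kilobase of exon, counts scaled to a common total of reads per capture (CPM) and averaged over the 10 captures with at least 3 thinned cells, levels were highest for Alox5ap (362 ± 225 CPM per kb, mean ± SD over captures). Ptafr (219 ± 259) and Pla2g7 (199 ± 184) came next, then Alox5 (79.5 ± 71.8), Ptgs2 (77.2 ± 67.9) and Lta4h (63.1 ± 64.8). Ltb4r1 (17.1 ± 18), Ptgs1 (12 ± 17.5), Pla2g4a (3.27 ± 3.71) and Ltc4s (0.0492 ± 0.156) were lowest. No 2 neighbours in this order differed by more than the SD over captures. Reads of Pla2g7, Alox5ap, Ltc4s, Pla2g4a and Ptgs1 could include reads of overlapping annotated genes, since the strand setting of the counting is not given in the sources used here.

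**Figure D1:**
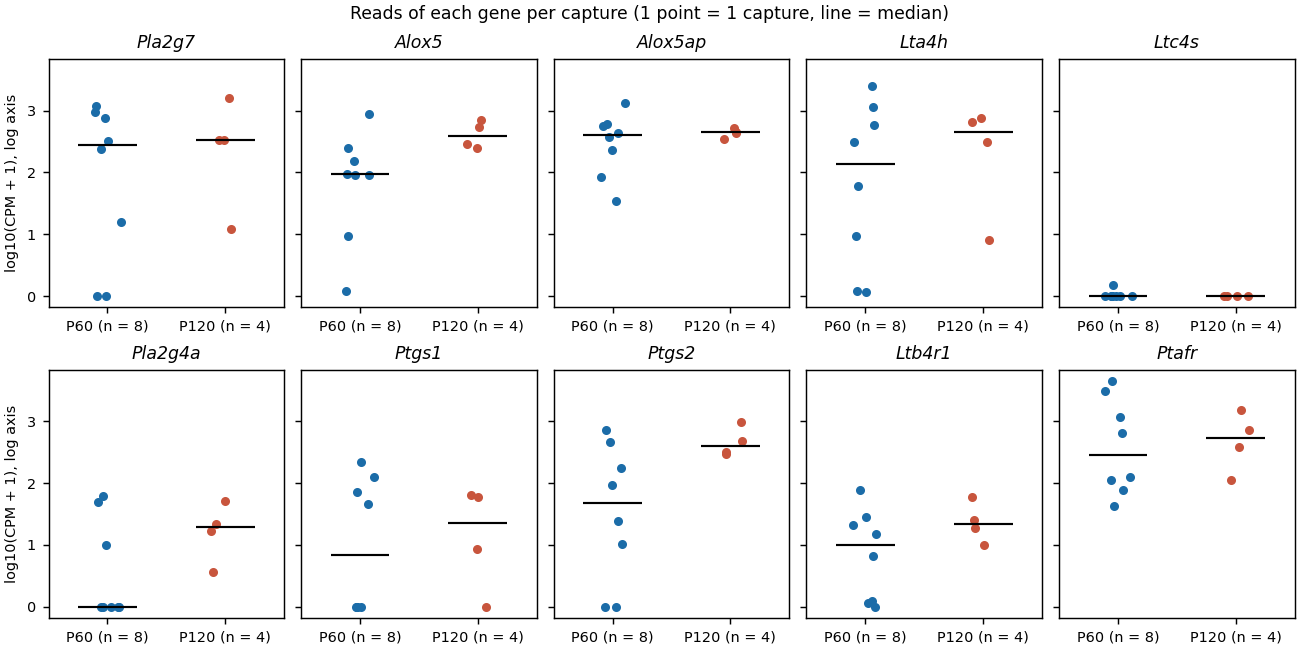
Each point is 1 capture (8 at P60, 4 at P120) and the line is the median; the vertical axis gives log10(CPM + 1) of the reads summed over all cells of the capture, one panel per gene. The ages overlap for every gene, and the P60 captures of Pla2g7 run from 0 to 1177 CPM.

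The first comparison asks whether the genes differed between the ages. None of them separated P60 from P120 beyond the spread of the captures. Pla2g7 stood at 0 CPM in the lowest of the 8 P60 captures, at a median of 278.3 and at 1177 CPM in the highest, against 11.25, 329.8, 1628 and 339.8 CPM in the P120 captures 28, 32, 36 and 38. Both ages therefore held captures near 0 and captures above 1000 CPM. Ptgs2 ranged from 0 to 708 CPM at P60 with a median of 57.3, and was 297.4, 319.9, 484.1 and 974.1 CPM at P120. All P120 captures lay above the P60 median for Ptgs2, but 2 P60 captures, 20c and 31, lay within the P120 range.

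For the other genes the ranges overlapped in the same way. Alox5 spanned 0.214 to 896 CPM at P60 and 243 to 717 CPM at P120, Alox5ap 33.5 to 1323 and 344 to 530 CPM, and Lta4h 0.147 to 2517 and 7.01 to 765 CPM. Ptafr spanned 41.9 to 4481 CPM at P60 and 113 to 1546 CPM at P120. The low-level genes did too, with Ptgs1 at 0 to 221 and 0 to 62.4 CPM, Ltb4r1 at 0 to 76.2 and 8.97 to 58 CPM, and Pla2g4a at 0 to 60.9 and 2.63 to 50.7 CPM. For all 9 genes with reads at both ages the range of P120 overlapped that of P60.

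In edgeR's quasi-likelihood test on the capture sums, 0 of the 9 genes tested passed an adjusted p of 0.05 in either direction, against 0.0599% of 8346 genes called higher at P120, 0.0599% called higher at P60 and 0.12% called in either direction, and 0 of 9 had an unadjusted p under 0.05. DESeq2 called 0 of them as well. The log2 difference, P120 minus P60, was 1.67 for Ptgs2 (SE 1.41, p = 0.236), 1.30 for Alox5 (SE 1.42) and 1.23 for Pla2g7 (SE 1.34, p = 0.360), each with an adjusted p of 1. Leaving out capture 36 turned the Pla2g7 value to -1.12 and took Alox5 to 0.60, and leaving out 19c took Alox5 to 2.67. The sequencing run of 6 of the 8 P60 captures held no P120 capture, so run and age are in part confounded, and the part of the run was not tested beyond the fit without those 6.

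Shares of cells were compared between the ages as well. In exact two-sided permutation tests over 6 P60 and 4 P120 captures with at least 3 thinned cells, whose smallest possible p is 0.00476, cells with a Pla2g7 read made up 53.9% ± 29.8 at P60 (SD over 6 captures) and 34.6% ± 14.9 at P120 (SD over 4 captures), with p = 0.252. Alox5 averaged 29.8% and 43.4% (permutation p = 0.248), Lta4h 30% and 41.1%, Ptgs2 40% and 46.5%, and Ptafr 40.7% and 36.3%. Without thinning, depth also moves the shares, and the test took 8 P60 captures, with 10c and 17c added. Ptgs2 then stood at 36.3% at P60 and 75.7% at P120 (permutation p = 0.0364, adjusted p of 1). Captures 10c and 17c held no Ptgs2 read, so this shift does not come from depth alone. Without capture 40 the Pla2g7 difference was -28.3 points (permutation p = 0.0476, adjusted p of 1), against -19.3 with it. The share test called 0 of 6864 genes after adjustment, with 1.57% at an unadjusted p under 0.05. All 9 genes tested had an adjusted p of 1. With a smallest possible p of 0.00476, a gene could pass the adjustment only if many genes reached that value together. The adjusted result therefore cannot decide whether the shares differ between the ages.

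The cells were then split by marker genes that include none of the 10. Cells with at least 10 reads on 3 or more basophil genes (such as Mcpt8 and Prss34) formed a basophil class of 17 cells. Of the rest, cells with 3 or more of the granulocyte precursor genes Elane, Mpo, Prtn3, Ctsg and Ms4a3 formed a precursor class of 26 cells. Of those left, cells with 10 or more reads of Il1b or Cxcr2 formed a mature class of 51 cells at P60 and 50 at P120, leaving 20 others. All mature class cells held at least 3 late neutrophil genes and are called mature neutrophil-like. That list includes Il1b and Cxcr2, so the class rule itself supplied part of this count. The precursor class, called granulocyte precursor-like, held the late neutrophil genes in 26 of 26 cells too. In the basophil class, called basophil-like, 15 of 17 cells also passed the precursor list, and 16 of 17 came from P120. The late neutrophil genes were held by 12 of these 17 cells. Supporting cell genes took 0.00348%, 0.0120% and 0.00311% of the reads in the precursor, mature and basophil classes.

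**Figure D2:**
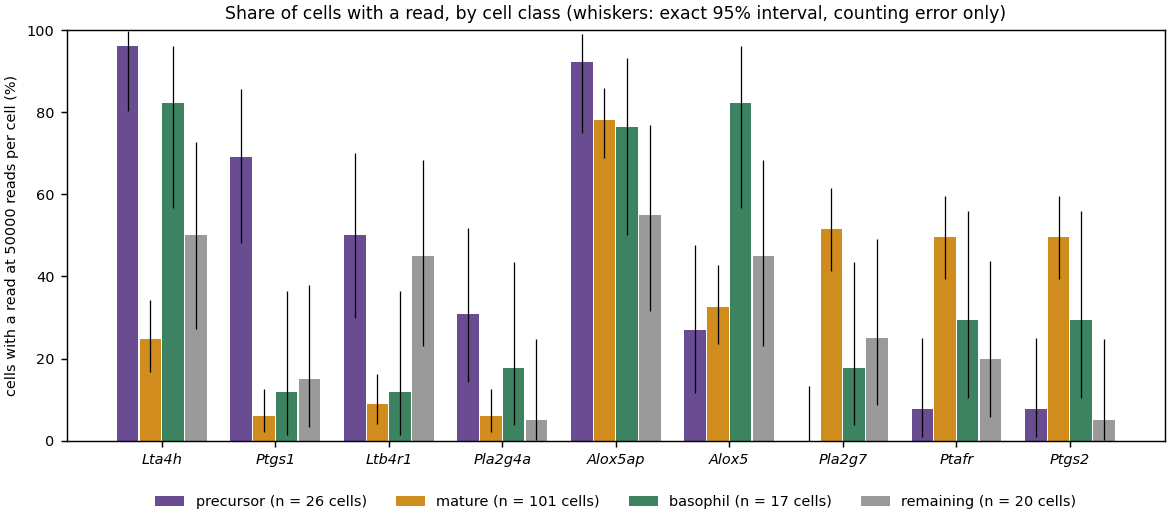
Bars give the percent of cells with at least 1 read of each gene after thinning to 50000 reads, for 26 precursor, 17 basophil, 20 remaining and all other (mature) cells of the 164; whiskers are exact 95% intervals that cover counting error only. Lta4h and Ptgs1 stand highest in the precursor class, Pla2g7, Ptafr and Ptgs2 in the mature class and Alox5 in the basophil class.

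The lipid mediator genes fell into 2 patterns over these classes. Lta4h and Ptgs1 were read in a larger share of precursor-like than of mature neutrophil-like cells, and Pla2g7, Ptafr and Ptgs2 in a larger share of mature neutrophil-like cells, while Alox5ap was common in both. Pla2g7 was read in 52 of the mature cells (51.5%) and in 0 of 26 precursor cells at equal depth, which allows up to 11.5% by a limit of 3 cells and up to 13.2% by the exact 95% interval. Without thinning, 15.4% of the precursor cells and 80.2% of the mature cells held a Pla2g7 read, and no precursor cell was above 24.8 CPM. The classes differed in depth and complexity, with medians of 1809760 and 870631 reads and, after thinning, of 2515.5 and 810 genes per precursor and mature cell.

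The release of arachidonic acid was seldom read. Pla2g4a was present in 30.8% of precursor cells, 5.94% of mature cells and 17.6% of basophil cells. In the captures that held at least 3 cells of both classes, 28, 40 and 9c in this order, its level was 63.5, 20.1 and 1.15 CPM in precursor cells and 2.31, 2.76 and 190 CPM in mature cells. Capture 9c thus went the other way from the other two.

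Along the leukotriene route, Alox5ap was read in 92.3% of precursor and 78.2% of mature cells, with 190, 235 and 188 CPM in precursor cells and 457, 508 and 462 CPM in mature cells of captures 28, 40 and 9c. The mature values were above the precursor values in all 3, and in 5 of the 6 captures that held any cells of both classes. Alox5 was read in 26.9% of precursor, 32.7% of mature and 82.4% of basophil cells, and its level in those 3 captures was 568, 131 and 2.87 CPM in precursor cells against 143, 401 and 49.8 CPM in mature cells, with no common direction. Lta4h (ENSMUSG00000015889.7, chr10:93453411-93484875) was read in 96.2% of precursor cells, 24.8% of mature cells and 82.4% of basophil cells. Its precursor level was 1682, 726 and 1866 CPM against 211, 11.4 and 620 CPM in mature cells of the same captures. It was higher in precursor cells in 6 of 6 captures, a direction shared by 8.28% of 11617 genes, while 1.21% were higher in mature cells in 6 of 6. For counts of 5 of 6, here and below, no share over all genes was computed. The receptor gene Ltb4r1 was read in 50% of precursor and 8.91% of mature cells, at 16.6, 140 and 74.3 CPM against 1.60, 36.9 and 0.825 CPM, and was higher in precursor cells in 5 of 6 captures.

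For PAF, the degrading enzyme and the receptor were both higher in mature cells in 5 of 6 captures. Pla2g7 reached 0.154, 0 and 8.32 CPM in precursor cells of captures 28, 40 and 9c, which stands for 2, 0 and 29 reads, and 25.1, 5.68 and 847 CPM in mature cells. Among the captures with 1 or 2 precursor cells, mature cells had 1413 CPM in capture 31 and 473 CPM in capture 38 but 0 in the single mature cell of 17c. The mature level was the higher in 5 captures and equal, at 0, in 1. Ptafr (ENSMUSG00000056529.7, chr4:132564067-132582683) stood at 0.309, 51.9 and 0 CPM in precursor cells and at 284, 26 and 394 CPM in mature cells. It was higher in mature cells in 5 of 6 captures and lower in capture 40. In capture 17c this rested on 1 mature cell at 20282 CPM and 1 precursor cell at 0.387 CPM.

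The cyclooxygenase genes were split between the classes. Ptgs1 (ENSMUSG00000047250.13, chr2:36230426-36252272) was read in 69.2% of precursor and 5.94% of mature cells, at 211, 177 and 439 CPM against 0.948, 3.13 and 77 CPM in captures 28, 40 and 9c. Like Lta4h it was higher in precursor cells in 6 of 6 captures. Ptgs2 (ENSMUSG00000032487.8, chr1:150100031-150108227) was read in 7.69% of precursor and 49.5% of mature cells, at 0.927, 0.322 and 38.8 CPM against 748, 19.8 and 47.3 CPM. It was higher in mature cells in 5 captures and equal, at 0, in 1, although in capture 9c the levels were close.

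**Figure D3:**
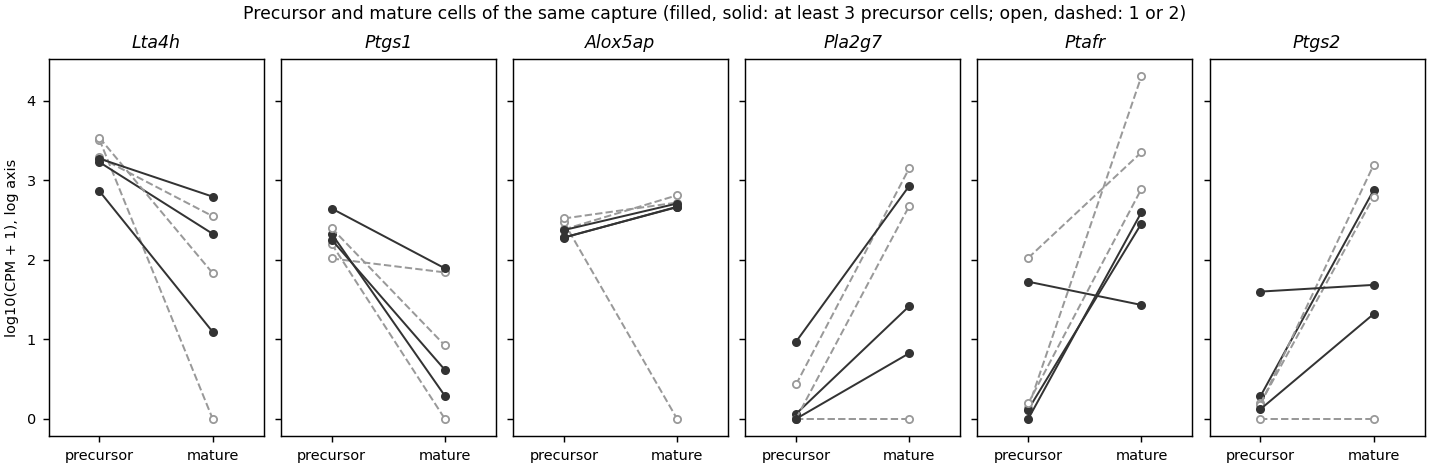
Each line joins the precursor and the mature cells of 1 capture, with log10(CPM + 1) of the summed reads on the vertical axis; filled points and solid lines mark the 3 captures with at least 3 precursor cells, open points and dashed lines those with 1 or 2. Lta4h and Ptgs1 fall in 6 of 6 captures, while Pla2g7, Ptafr and Ptgs2 rise in 5 of 6.

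The test of this comparison had few sums, with 4 mature and 3 precursor sums of at least 3 cells in the fit and the capture as a block. Of the 9 genes tested by edgeR, Ptafr alone passed an adjusted p of 0.05 (log2 difference 10.05, mature minus precursor, SE 2.42, adjusted p = 0.0117), against 0.405% of 11617 genes called higher in mature, 0.0861% called higher in precursor cells and 0.491% called in either direction. The mean was 675 ± 893 CPM in mature sums (SD, n = 4) and 17.4 ± 29.9 CPM in precursor sums (SD, n = 3), and the fitted size rests on precursor sums of 0, 4 and 807 reads, so it is no bound. Pla2g7 followed with 464 ± 521 against 2.83 ± 4.76 CPM and a log2 difference of 8.29 (SE 2.51, adjusted p = 0.124). Both mature means include capture 32, which held no precursor cell and stood at 1994 CPM for Ptafr and 978 CPM for Pla2g7. The means of the 2 classes thus do not come from the same captures. The median log2 difference of all genes tested was -1.15, so that relative to it Ptafr was 11.20 and Pla2g7 9.44 higher in mature cells. Without capture 9c, 28 or 32 the adjusted p of Ptafr was 0.552, 0.865 and 0.312, and the call was lost.

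The other genes did not pass. Ptgs2 had a log2 difference of 6.24 (SE 3.27, adjusted p = 0.480 by edgeR), Ptgs1 of -5.37 (SE 2.78, adjusted p = 0.476), Lta4h of -2.57 (SE 1.40, adjusted p = 0.498) and Alox5ap of 2.62 (SE 1.50, adjusted p = 0.523). For Ltb4r1, Pla2g4a and Alox5 the values were -2.67, -2.44 and 0.85. Within the mature class alone, an age comparison that was added after seeing the data called 0 of 4740 genes by edgeR, with 241 at an unadjusted p under 0.05. Pla2g7 averaged 823 ± 611 CPM in 6 P60 sums and 780 ± 695 CPM in 4 P120 sums there (SD).

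Most basophil-like cells held a read of Alox5, Alox5ap or Lta4h, and 9 of 17 held all 3. Alox5 was read in 14 of 17 of them, Lta4h in 14, Alox5ap in 13 and Ltc4s in 0, while Ptgs2 and Ptafr were each read in 5 and Pla2g7 in 3. In capture 28, 5 basophil cells had 185 CPM of Alox5, 533 of Alox5ap and 176 of Lta4h, and in capture 32, 10 basophil cells had 938, 386 and 445 CPM. Alox5 was higher in basophil than in mature cells in 4 of 4 captures with both, a direction held by 6.58% of 11617 genes, and Ptgs2 and Ptafr were higher in mature cells in 4 of 4, a direction held by 5.55%. Of these captures, 9c and 38 held 1 basophil cell each, and in capture 28 Alox5 differed little, with 185 against 143 CPM. No gene of the 10 was called by edgeR between the basophil and mature classes, against 0.0947% of 11617 genes called higher in basophil, 0.198% called higher in mature cells and 0.293% in either direction, and 1 of 9 tested had an unadjusted p under 0.05, beside 8.13% of all genes. This was Ptafr (log2 difference, basophil minus mature, -4.30, adjusted p = 0.603). DESeq2 also called 0. For Alox5 the blocked fit gave -0.63 although its mean was 561 ± 533 CPM in 2 basophil sums and 212 ± 151 CPM in 4 mature sums, so the fit and the means differ in sign. Over the alternatives the fitted value stayed negative, and the median of all genes in this fit was 1.26. Only capture 28 held at least 3 basophil and 3 precursor cells, so these classes were not tested with the block.

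Of 53 further genes of phospholipid, leukotriene, PAF and prostaglandin metabolism, all were in the table, 20 were read in at least 5% of the thinned cells and 3 had no read at all (Ltb4r2, Oxgr1 and Ptgdr2, receptors for leukotrienes, oxoglutarate and prostaglandin D2). Between mature and precursor cells, 1 of the 33 tested was called higher in mature cells and 0 lower, with 9 at an unadjusted p under 0.05. Over all 11617 genes 0.405% were called higher in mature cells, and 10.6% had an unadjusted p under 0.05. The gene called was Anxa1, whose product annexin A1 inhibits phospholipase A2, at 7378 ± 4616 against 2450 ± 1863 CPM (log2 difference 2.95, SE 0.61, edgeR adjusted p = 9.24e-04). Its mature mean also includes capture 32, which held no precursor cell. The median log2 difference of the 33 was -1.05, beside -1.15 for all genes. Between the ages 0 of 23 and between the basophil and mature classes 0 of 33 were called by edgeR, with 0 and 5 at an unadjusted p under 0.05, beside 5.31% and 8.13% of all genes.

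In shares of cells some of these genes differed in the way Lta4h and Ptgs1 did. Ptgr1, which inactivates leukotriene B4 and reduces prostaglandins, was read in 73.1% of precursor and 3.96% of mature cells, and Mgst2, which can form leukotriene C4, in 76.9% and 10.9%. Cyp4f18, a cytochrome that hydroxylates leukotriene B4, was read in 0 of 26 precursor cells, 39.6% of mature cells and 9 of 17 basophil cells. The lipoxygenase genes Alox15 and Alox12e were read in 5 and 6 of 17 basophil cells and in 0 precursor and 0 mature cells. Ptges, the inducible prostaglandin E synthase that acts after the cyclooxygenases, was read in 1.83% of all thinned cells.

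Ptgs2 and Ptafr were read more often in cells with a Pla2g7 read than in cells without it, and the other genes apart from Ltc4s less often. Among the 164 thinned cells, 60 held a Pla2g7 read and the others did not. Ptgs2 was read in 60% of the former and 21.2% of the latter, and Ptafr in 58.3% and 25%. Lta4h went the other way with 21.7% and 58.7%, as did Ptgs1 with 6.67% and 24% and Ltb4r1 with 6.67% and 27.9%. Alox5 was read in 30% and 43.3%, and Alox5ap in 66.7% and 83.7%. Before thinning, cells with a Pla2g7 read had a median of 726896 reads and those without it 1391220.

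Since the classes themselves differ in these genes, the mature class was also taken alone, a choice made after seeing the data. Of its cells, 52 held a Pla2g7 read. Ptgs2 was read in 33 of these 52 cells (63.5%) and in 17 of the 49 others (34.7%), and Ptafr in 59.6% and 38.8%. The Lta4h difference shrank to 19.2% against 30.6%, and Ptgs1 was at 5.77% and 6.12%. At P60 the Ptgs2 shares in mature cells were 57.1% with and 21.7% without Pla2g7, and at P120 70.8% and 46.2%. The Ptafr shares were 70.8% and 26.9% at P120 and 50% and 52.2% at P60, and whether the ages differ in this was not tested.

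Over the captures, Ptgs2 went 1 way throughout and Ptafr did not. In the 8 captures with at least 2 mature class cells with and 2 without a Pla2g7 read, the Ptgs2 share among mature cells was higher in those with Pla2g7 in 8 of 8, by 23.9 ± 16.4 percentage points (SD, n = 8). Some of these differences were small, as in capture 36 with 75% of 4 cells against 71.4% of 7. The share of all genes that were higher in 8 of 8 was not computed, so whether the count is particular to Ptgs2 is not known. For Ptafr it was higher in 5 of 8, by 9.84 ± 49 points. Alox5ap was lower in 6 of 8 and Alox5 in 5 of 8. These are descriptions of cells, with no test.

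**Figure D4:**
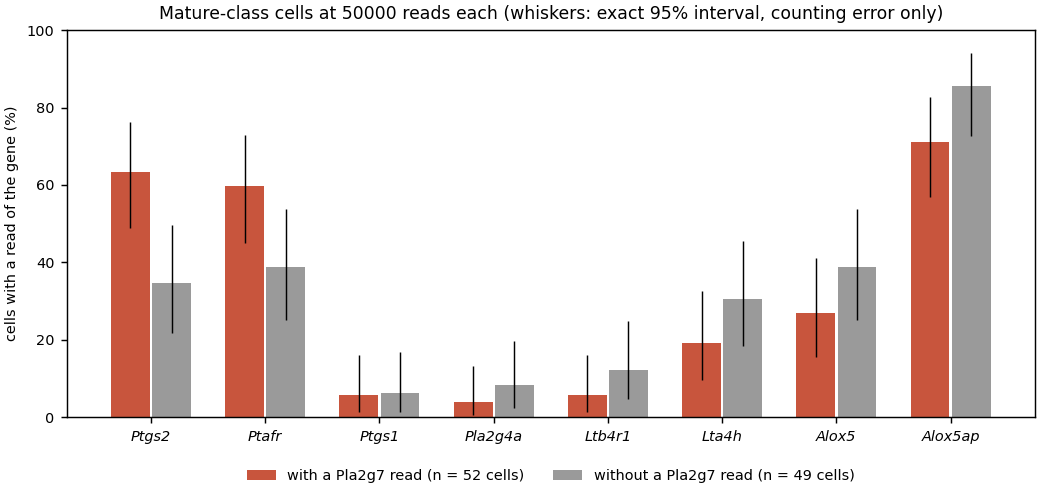
Bars give the percent of mature class cells with a read of each gene at 50000 reads per cell, for the 52 cells with and the 49 cells without a Pla2g7 read; whiskers are exact 95% intervals that cover counting error only. Ptgs2 (63.5% against 34.7%) and Ptafr (59.6% against 38.8%) are higher in the cells with Pla2g7, and Alox5ap is lower (71.2% against 85.7%).

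As a description over the 164 cells, log2(thinned count + 1) was correlated between the genes after the mean of each capture had been subtracted. Lta4h and Ptgs1 had the highest Pearson's r of the 36 pairs (0.57), followed by Ltb4r1 with Ptgs1 (0.36) and Pla2g7 with Ptafr (0.35). Pla2g7 with Ptgs2 reached 0.27 and Ptgs2 with Ptafr 0.26, while Lta4h stood at -0.24 with Pla2g7 and at -0.30 with Ptgs2. Only 3 of the 36 pairs were above 0.3. The cells share captures, depth and class, so these values do not separate a link between 2 genes from a shared cell class. The genes most like Pla2g7 by this measure, among 2151 genes read in at least 20% of the cells, were Il1b (0.48), an inflammatory cytokine that the mature class rule itself uses, Malat1 (0.39), Clec7a (0.38), Clec4d (0.37) and Junb (0.36). Ptafr ranked 8, Ptgs2 ranked 30 and Lta4h ranked 2091 of 2151.

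**Figure D5:**
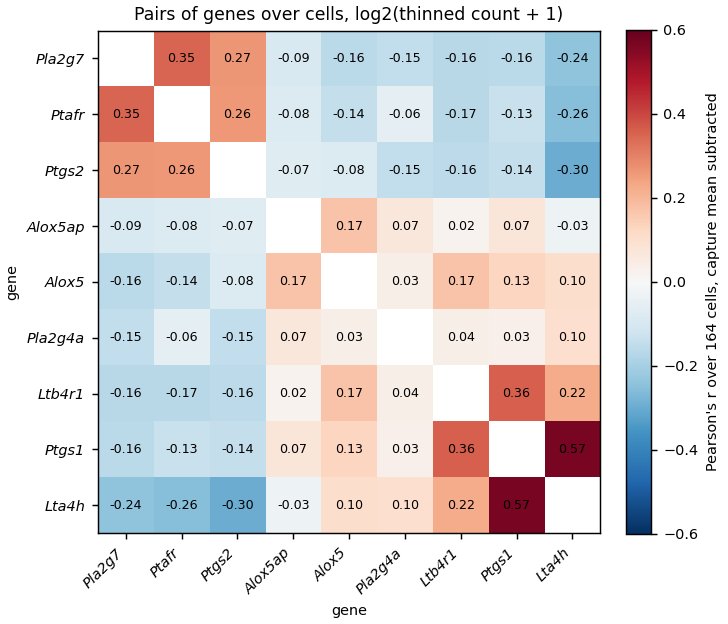
Each square gives Pearson's r between 2 genes over 164 cells, computed on log2(thinned count + 1) with the capture mean subtracted; red is positive and blue negative. Pla2g7, Ptafr and Ptgs2 form a positive block (0.26 to 0.35), Lta4h, Ptgs1 and Ltb4r1 another (0.22 to 0.57), and the values between the blocks are negative.

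Whole routes were seldom read in 1 cell. Alox5 and Alox5ap were read together in 55 of 164 cells (33.5%), among them 12 of 17 basophil cells, 7 of 26 precursor cells and 28 mature cells (27.7%). With Lta4h added, the route to leukotriene B4 was read in 29 cells (17.7%), of which 9 were basophil cells and 7 mature cells, and with the receptor Ltb4r1 in 11 cells (6.71%). Pla2g7 and Ptafr were read together in 35 cells (21.3%), 31 of them mature cells and 0 precursor cells. Both cyclooxygenases were read in 3 cells (1.83%), whereas Ptgs1 alone was read in 26 cells, 17 of them precursor cells, and Ptgs2 alone in 55 cells, 49 of them mature cells. At 50000 reads a gene at a low level can be missed in a cell that has it.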

How the data were processed

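Per the labels and the paper, full-length cDNA of each GFP-positive cell was sequenced without molecular identifiers, and the authors mapped the reads with STAR (mm10 in the submitters' processing notes, GRCm38 and annotation vM11 in the paper). The deposited table holds raw read counts per gene, with 92 spike-in sequences that took 12.3% of the reads and were left out here. The authors removed endothelial cells and outliers before deposit. A normalized GFP intensity score deposited by the authors for each cell was not used. No doublet caller was run.

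The members and all gene lists were chosen with earlier results of these data known. Symbols were matched for 48349 gene identifiers. Sums of counts over the cells of a capture, or over those of 1 class in a capture (at least 3 cells, capture as a block), were tested over all genes with edgeR 4.0.16 in R 4.3.3 (TMM, filterByExpr, quasi-likelihood F test, Benjamini-Hochberg at 0.05). DESeq2 1.42.0 was the other tool. Captures with 1 class sum hold no class difference and left the blocked fit. Shares were computed after thinning to 50000 reads (seed 20), with exact intervals from scipy 1.17.1. They were compared by exact permutation tests over captures, adjusted over all genes. The p was the fraction of arrangements with an absolute difference at least as large as the one seen. GEO samples are single cells, so the capture is the replicate. The p-values of the age tests weigh a difference against the spread between captures. Those of the class fits, with the capture as a block, weigh it against the spread left within captures. The tests were tried on simulated counts. The genes named are all members, the listed pathway genes past 0.05 or, chosen after their values were seen, with large differences in share, and the 5 genes most like Pla2g7. Other settings were DESeq2, no filter, thinned sums, other class rules and cell minimums, no block, captures sharing a run, 200000 reads, and each capture left out.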

Additional observations from a re-analysis of the deposited data

Results flagged for a closer look

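Capture values were looked at in 37 groups for a capture far from the others of its age, and 5 groups held one, all at P60 and all the highest of 8 captures. All 5 were groups of CPM values and 0 were groups of shares. For normally distributed values chance flags about 1 in 20 groups. CPM values were skewed, with an SD above the mean for most genes at P60, so that rate does not hold for them. Alox5 was at 895.6 CPM in capture 19c, with the nearest capture at 248 CPM. Alox5ap was at 1323 CPM in capture 20c, with the nearest at 600 CPM. Lta4h was at 2517 CPM in capture 17c, which holds 3 cells, with the nearest at 1156 CPM. Ltb4r1 was at 76.2 CPM in capture 40, with the nearest at 27.1 CPM. Ltc4s was at 0.499 CPM in capture 31 and at 0 in the others, from 17 reads in 1 cell.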

How the results depend on the processing

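No paired analysis was possible for the ages because each capture held cells of 1 age only, while the class comparison has the capture as a block. Between mature and precursor cells, 1 of the genes was called (Ptafr). DESeq2 called 4 (Pla2g7, Ptgs1, Ptgs2 and Ptafr, with 779 genes higher and 1560 lower in all, against 47 and 10), sums of thinned cells 2 (Pla2g7 and Ptafr), the fit with no capture block 3 (Pla2g7, Ptgs2 and Ptafr, with 1000 genes called, 896 of them lower), sums of at least 2 cells, added after seeing the data, 3, and sums of at least 5 cells 0. A class rule of 2 genes in place of 3 called Pla2g7 in place of Ptafr, whose log2 difference was then 2.75, and 5.62 with sums of at least 5 cells, against 10.05. Leaving out 1 capture gave 0 to 1, and 0 without 9c, 28 or 32, where Ptafr was at 9.91, 7.80 and 9.89. Over these alternatives the adjusted p ran from 0.00239 to 0.865 for Pla2g7 and from 6.92e-06 to 0.865 for Ptafr. Pla2g7 stood higher in mature cells under each of them. For Alox5 the direction turned with sums of at least 5 cells (-0.33) and without capture 40 (range -0.255 to 3.42). Between basophil and mature cells, Ltb4r1 turned to -1.44 with thinned cells and Ptgs1 to 0.72 with the 2-gene rule. Alternatives for basophil against precursor cells other than no block could not be fitted, and without the block 0 of the genes were called.

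Between the ages 0 of the genes were called under any setting. The log2 difference of Alox5ap turned to -0.32 with DESeq2, -0.029 with no filter, -0.043 with thinned cells and -0.11 in the mature class. Pla2g4a turned to -1.13 with thinned cells, -0.66 with captures sharing a run with P120 and -3.76 in the mature class. With shared runs Ltb4r1 was -0.59 and Ptafr 1.07, and in the mature class Ptgs1 was 0.93 and Ptafr 0.20. With 1 capture left out the ranges crossed 0 for Pla2g7 (-1.12 to 1.65), Ptgs1 (-1.33 to 0.026), Alox5ap (-0.38 to 0.63), Lta4h (-0.67 to 0.57), Ptafr (-1.10 to 0.125) and Pla2g4a (-0.049 to 1.41). The share differences, P120 minus P60, turned without thinning to 12 points for Pla2g7, 21.8 for Alox5ap, 5.36 for Pla2g4a, 1.29 for Ptgs1, 0.961 for Ltb4r1 and 8.41 for Ptafr, while that of Ptgs2 grew from 6.49 to 39.4, and at 200000 reads to 7.76 for Alox5ap and 3.65 for Pla2g4a. Without thinning, captures 10c and 17c entered as well, so depth and the set of captures changed together. With 1 capture left out they crossed 0 for Pla2g4a (-6.34 to 0.555), Alox5ap (-11.4 to 5.21), Ptafr (-12.9 to 1.79), Ptgs2 (-2.25 to 12.8) and Ltb4r1 (-6.41 to 3.59), and for Pla2g7 ran from -28.3 without 40 to -10.1 without 21c. Of the other genes, 4 in place of 2 were more often read with Pla2g7 when cells were not thinned and 10 reads were required (Alox5, Alox5ap, Ptgs2 and Ptafr). The cause of these changes was not tested.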
